A study of Mus musculus with 4 samples.

Results

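S100 and annexin genes encode the best known families of small and membrane-associated calcium-binding proteins, and they were described here in eosinophils sorted from the bone marrow and from the pleural cavity. The members were the genes of the deposited table whose symbol was S100a followed by a number, S100b, or Anxa followed by a number. This gave 15 of the 5807 listed genes, of which 7 were S100 genes (S100a4, S100a5, S100a6, S100a8, S100a9, S100a10 and S100a13) and 8 were annexin genes (Anxa2, Anxa3, Anxa4, Anxa5, Anxa6, Anxa7, Anxa10 and Anxa11). The family genes S100a1, S100a3, S100a7a, S100a11, S100a14, S100a16, S100b, S100g, S100z, Anxa1, Anxa8, Anxa9 and Anxa13 were looked for and were not listed, so no direction is given for them.

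Both groups came from wild-type mice, 6 to 8 weeks old, that received 150000 LLC cells into the pleural cavity, and cells were collected on day 2. LLC is a Lewis lung carcinoma line of the mouse, and its intrapleural injection is a model of malignant pleural effusion (MPE). Each tissue gave 2 libraries, and the labels do not say whether these came from separate mice. Bone marrow eosinophils were enriched with F4/80 beads and sorted as DAPI-CD45+SiglecF+SSChi cells. Pleural cavity eosinophils were enriched with CD45 beads and sorted as DAPI-CD45+CD11c-Gr1-/lowCD11b+F4/80+SiglecF+SSChi cells, so cells with high Gr1 were gated out in the pleural cavity alone. Both gates were meant to hold eosinophils, and the study reports a high purity of the sorted cells, which it also examined by Wright-Giemsa staining. The study's methods take the marrow from mice with LLC cells, whereas its text elsewhere calls the marrow naïve. The comparison asks how eosinophils that have reached the pleural cavity differ from those still in the marrow.

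For each gene the table gave the authors' mean of estimated reads over the 2 libraries of a tissue, and no value per library. No spread between replicates and no test could therefore be computed, and the intervals below cover counting error alone. Mean reads were divided by their sum over the listed genes, which came to 15947438 for the pleural cavity and 11762543 for the marrow, and are given as reads per 1000000 listed reads. Being listed depended on the submitters' own comparison of the tissues. No listed gene with reads in both tissues lay between log2 ratios of -0.47 and 0.18, so genes at similar levels were absent and a listed member had to differ. Scaling to the listed total is one of 6 scalings tried, and the zero of 4 of them, this one included, fell in that empty stretch.

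S100 proteins are small EF-hand proteins that bind calcium, change shape and then dock onto other proteins, inside the cell or after release. Annexins bind acidic phospholipids of membranes when calcium rises, and take part in membrane repair, vesicle traffic and the handling of dying cells. S100a8 and S100a9 encode the subunits of calprotectin, an abundant cytosolic protein of neutrophils and monocytes that sequesters metal ions and acts as an alarmin once released. S100A10 is unusual among S100 proteins in that it does not need calcium, and it forms a complex with annexin A2 at the cell membrane.

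The listed S100a genes lie on chromosome 3, with S100a10 apart from the others. S100a4, S100a6, S100a8 and S100a9 are shown because they stood on opposite sides of the comparison. RefSeq promoter windows of GRCm38.p6, with 250 bases before and 50 bases after the start site, were available for 12 of the 15 members, in 14 windows. S100a10, Anxa3 and Anxa6 had no window. The 250 bases before the start site are printed 5′ to 3′ on the strand of the gene. Capitals mark a match on either strand to TATAAA, the TATA box letters, or to TTGCNNAA, a loose form of the site of C/EBP factors. The letters TTGCNNAA are not themselves palindromic. The regions are chr3:90603520-90603769 for S100a4 and chr3:90612644-90612893 for S100a6, both on the plus strand, chr3:90668821-90669070 for S100a8 on the plus strand, and chr3:90695722-90695971 for S100a9 on the minus strand.
S100a4: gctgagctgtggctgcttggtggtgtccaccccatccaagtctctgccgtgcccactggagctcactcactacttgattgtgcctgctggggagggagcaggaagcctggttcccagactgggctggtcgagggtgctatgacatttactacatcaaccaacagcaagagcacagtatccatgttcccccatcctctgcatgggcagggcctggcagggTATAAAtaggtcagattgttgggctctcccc
S100a6: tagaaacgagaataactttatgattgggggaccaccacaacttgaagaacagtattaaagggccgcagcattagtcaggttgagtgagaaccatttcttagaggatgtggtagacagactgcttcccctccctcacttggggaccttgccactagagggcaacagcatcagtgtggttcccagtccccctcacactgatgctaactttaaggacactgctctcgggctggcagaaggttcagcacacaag
S100a8: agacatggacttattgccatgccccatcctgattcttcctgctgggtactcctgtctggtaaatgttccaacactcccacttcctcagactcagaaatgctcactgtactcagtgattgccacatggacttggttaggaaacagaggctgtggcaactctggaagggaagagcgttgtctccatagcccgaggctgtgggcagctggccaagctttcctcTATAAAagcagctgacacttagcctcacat
S100a9: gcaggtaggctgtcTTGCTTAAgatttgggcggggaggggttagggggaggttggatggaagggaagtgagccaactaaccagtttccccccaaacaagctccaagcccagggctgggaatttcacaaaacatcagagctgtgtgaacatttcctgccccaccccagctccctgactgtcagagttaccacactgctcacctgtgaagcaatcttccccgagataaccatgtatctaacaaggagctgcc

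TATAAA began 30 bases before the start site of S100a8 and 31 bases before that of S100a4, one gene lower and the other higher in the pleural cavity. No TATAAA was in the S100a6 window, and in S100a9 these letters began at base 1 after the start site. TTGCNNAA was in the S100a9 window, 236 bases before the start, and not in that of S100a8. Over the members, 5 of the 12 with a window held TATAAA (S100a4, S100a8, S100a9, Anxa2 and Anxa10) and 3 held TTGCNNAA (S100a9, Anxa4 and Anxa10), beside 15.7% and 12.2% of all 27025 genes with a window. By window the shares were 13.6% and 10.8% of 32851. The pair of motifs does not overlap in its letters, and a match is a description of the sequence.

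The members divided in direction. In pleural cavity eosinophils 8 of the 15 members were more than 2-fold higher, where 16% of listed genes were, and 5 were more than 2-fold lower, where 50.5% of listed genes were. Anxa5 and Anxa7 lay within 2-fold. The median log2 ratio of the members was 1.13 and that of all listed genes was -1.02. This background depended on read level. All listed genes include 695 with 0 pleural cavity reads. For the 1524 abundant genes, which reached 1000 mean reads in each tissue, the median was 0.44 on the same scale. Most members were abundant in this sense, and a comparison with genes of like read level was not tested. The S100 genes counted 5 higher and 2 lower with a median of 1.48, and the annexin genes counted 3 higher, 3 lower and 2 within 2-fold with a median of -0.06. Among all genes past 2-fold, 24.1% were on the higher side, and this share ran from 13.6% with the median of abundant genes as the scale to 50.7% with the median of ratios over all listed genes. The same scalings put 4 and 9 members on the higher side, and 6 and 4 on the lower side.

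**Figure D1:**
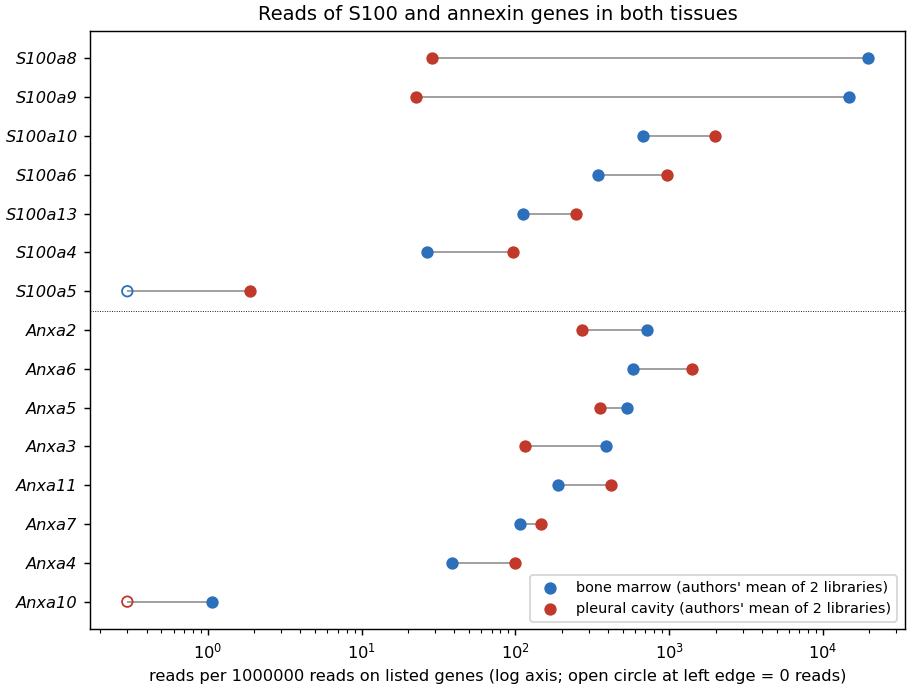
Reads per 1000000 listed reads (log axis) of the 15 members, with blue points for bone marrow and red points for pleural cavity eosinophils, each the authors' mean of 2 libraries, and open circles for 0 reads. S100a8 stood at 19473 in the marrow and 28.5 in the pleural cavity and S100a9 at 14831 and 22.4, while S100a10, S100a6, S100a13 and S100a4 stood higher in the pleural cavity.

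S100a8 and S100a9 were the members with the lowest ratios. S100a8 (ENSMUSG00000056054, chr3:90668978-90670035, plus strand) had 229057.5 mean reads in the marrow against 455 in the pleural cavity, or 19473 and 28.5 reads per 1000000 listed reads. This was 683-fold lower in the pleural cavity, with a counting interval of 640 to 729 and a log2 ratio of -9.41. S100a9 (ENSMUSG00000056071, chr3:90692632-90695721, minus strand) had 174446 and 357.5 mean reads, which was 662-fold lower, with an interval of 615 to 713. For ranking, means under 3 were raised to 3, which limits how low the 695 listed genes with 0 pleural cavity reads can rank. Of the 5807 listed genes, 8 then had a lower ratio than S100a8 and 9 a lower ratio than S100a9. Neither gene depended on the scaling for its direction, since the log2 ratio ran from -9.86 to -8.72 for S100a8 and from -9.81 to -8.68 for S100a9. In sorted bulk cells, fewer cells that carry a transcript and less of that transcript per cell cannot be told apart.

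In the marrow both genes were among the most abundant listed transcripts. S100a8 made up 1.95% and S100a9 1.48% of the marrow reads on listed genes. Counted per kilobase of the longest transcript, S100a8 ranked 2 and S100a9 ranked 3 among the 5656 listed genes with a gene model, and in the pleural cavity the ranks were 1151 and 1384. Summed, the calprotectin pair went from 3.43% of listed reads in the marrow to 0.00509% in the pleural cavity. Their reads kept nearly the same proportion, with 1.31 reads of S100a8 for each read of S100a9 in the marrow (interval 1.31 to 1.32) and 1.27 in the pleural cavity (interval 1.15 to 1.41). This proportion needs no scaling, and the intervals overlap.

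Markers of other granulocytes moved with the calprotectin genes. The list for neutrophils, whose cytosol calprotectin is known to fill, had 10 of 10 genes listed, 9 of them more than 2-fold lower in pleural cavity eosinophils. Its summed share was 5.73% of listed reads in the marrow and 0.440% in the pleural cavity. Nearly all of the pleural share was Mmp9, at 0.218%, and Retnlg, at 0.213%. The granule genes Camp, Ngp and Ltf of this list had log2 ratios of -9.42, -9.35 and -9.27, close to that of S100a8. Ly6g, a surface protein that Gr1 antibodies bind, had 1088 mean reads in the marrow and 5 in the pleural cavity. Cxcr2 and Csf3r, receptors of mature neutrophils, had smaller differences of -3.56 and -4.26, with fractional and so uncertain reads. The resistin-like gene Retnlg was at -2.55, and Mmp9 was at 0.87. The list for granulocyte precursors had 6 of 7 genes listed, and each of the 6 was more than 2-fold lower, from -7.44 for Prtn3 to -9.91 for Ms4a3. Its summed share was 2.95% in the marrow and 0.00473% in the pleural cavity. No listed gene of either list was at 0 reads in either tissue, and the part of these cells in the S100a8 and S100a9 reads was not tested.

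The granule genes of eosinophils were also far lower in the pleural cavity. Epx, eosinophil peroxidase, had a log2 ratio of -9.11, and Prg2, which encodes the major basic protein, one of -8.99. Prg3 was at -8.46, and the eosinophil-associated ribonuclease genes Ear1, Ear2 and Ear6 were at -8.94, -8.44 and -7.26, with fractional and so uncertain reads for Ear1 and Ear2. Of 9 listed eosinophil markers 7 were more than 2-fold lower, while the surface receptors Ccr3 and Siglecf, the latter a gene of the sort, were at 1.54 and 1.15. Their summed share was 9.55% in the marrow and 0.766% in the pleural cavity. Il5ra was not listed.

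Relative to these genes, S100a8 reads kept their proportion in some cases and not in others. For each Mpo read there were 1.17 reads of S100a8 in the marrow (interval 1.16 to 1.17) and 1.22 in the pleural cavity (interval 1.10 to 1.34). For each Camp read there were 1.61 and 1.62, and for each Ctsg read 11.7 and 12.0. These 3 genes are among those whose proportion to S100a8 was nearest in the tissues, and they were chosen after their values were seen. Other precursor and neutrophil genes varied in this. In the marrow and the pleural cavity the proportion was 0.870 and 0.833 for Ngp and 2.82 and 2.55 for Ltf, with overlapping intervals. It was 22.2 and 31.4 for Ms4a3, also with overlapping intervals (21.9 to 22.6 and 21.7 to 47.1). For each Prtn3 read there were 11.4 reads of S100a8 in the marrow and 2.90 in the pleural cavity. For Lcn2 there were 12.9 and 4.79, and for Mmp8 93.3 and 29.4. The intervals of Prtn3, Lcn2 and Mmp8 do not overlap. Those of Elane do not either, with a higher proportion in the pleural cavity, 3.36 (2.93 to 3.86), than in the marrow, 2.86 (2.84 to 2.87). These intervals hold no spread between libraries, so overlap or its lack is a matter of counting error alone. The proportion was 1.65 and 1.33 for Epx. It was further apart for Csf3r, whose reads were fractional, at 63.2 in the marrow and 1.77 in the pleural cavity, and for Retnlg, at 1.56 and 0.0134. Among the genes of these 3 lists it was furthest apart for Ccr3, at 13.3 and 0.00674. The likeness was shared by a limited set: of 168 listed genes with at least 10000 mean reads in the marrow, 13, S100a8 included, lay within 0.5 of its log2 ratio, and 88 were higher in the pleural cavity. The 13 were S100a8, S100a9, Camp, Ctsg, Ear1, Elane, Epx, Fcnb, Ltf, Mpo, Ms4a3, Ngp and Prg2.

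**Figure D2:**
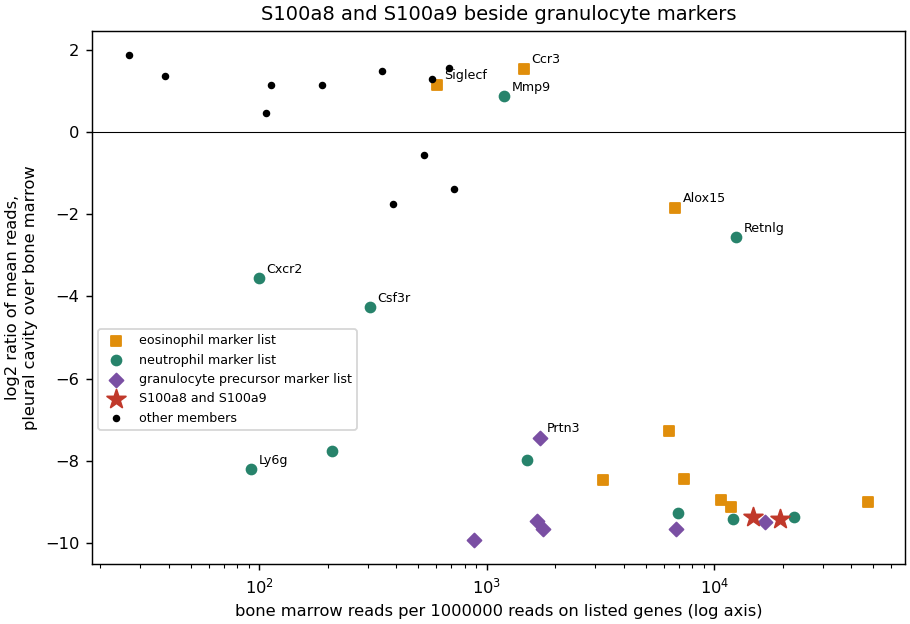
Marrow reads per 1000000 listed reads (x, log axis) against the log2 ratio of pleural cavity over bone marrow (y) for the listed genes of 3 marker lists and for the members, each point the authors' means. S100a8 and S100a9 (stars) sit at -9.41 and -9.37 beside the granule genes Camp, Ngp and Mpo, while the other members (black) lie between -1.76 and 1.86.

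The remaining marker lists moved less evenly. The gates select CD45+SiglecF+ cells, and the pleural one leaves out CD11c+ cells. The gates of both tissues were meant to leave out other cell types, other granulocytes included. Whether any of these remained after sorting was not tested. Of 12 monocyte or macrophage markers 7 were listed. More than 2-fold higher were 3, Marco at 3.04, Csf1r at 1.94 and C1qb at 1.77, while C1qa at 0.92 was within 2-fold. More than 2-fold lower were 3, Ly6c2 at -5.62, Mrc1 at -1.27 and Lyz2 at -1.24. Gr1 antibodies bind Ly6C, so Ly6c2 is a gene of the sort, and its reads and those of Lyz2 were fractional and so uncertain. The summed share was 0.987% in the marrow and 0.502% in the pleural cavity, of which Lyz2 alone held 0.744% and 0.316%. The basophil or mast cell list had 5 genes listed and each of the 5 lower, with 0.0914% of listed reads in the marrow and 0.000379% in the pleural cavity. The lymphocyte list had 4 listed, 1 higher and 3 lower, with 0.0912% and 0.00329%. The erythroid list had 2 listed and both lower. The platelet list had 3 listed, 1 higher and 2 lower, and the mesothelial, epithelial or tumor list had 2 listed, Krt18 at 1.45 and Col1a1 at -3.85. No dendritic cell marker was listed. The part of these cells in the member ratios was not tested.

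The receptors and partners through which calprotectin is known to act did not follow it. Of 13 genes on this list 7 were listed, with 2 more than 2-fold higher, 1 lower and 4 within 2-fold, and a median log2 ratio of 0.63. Cd14, a co-receptor of Toll-like receptor 4, had 1638.5 mean reads in the pleural cavity and 424 in the marrow, a log2 ratio of 1.51. Cd36, a scavenger receptor, had 625 and 127.5, a ratio of 1.85. Ager, the receptor for advanced glycation end products, was low in both tissues with 57.5 and 118 mean reads, a log2 ratio of -1.48. The adaptor Myd88 and the NADPH oxidase subunit Cyba were at 0.63 and 0.66, and Bsg, which encodes the S100A9-binding protein basigin, at 0.34. With the median of abundant genes as the scale, Bsg changed sign, to -0.10. Tlr4, Ly96, Cybb, Ncf1, Ncf4 and Rac2 were not listed.

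The other listed S100 genes were higher in pleural cavity eosinophils. S100a10 (ENSMUSG00000041959, chr3:93555080-93564643, plus strand) had 31633 mean reads in the pleural cavity and 7995.5 in the marrow, or 1984 and 680 reads per 1000000 listed reads. It was 2.92-fold higher in the pleural cavity, with an interval of 2.87 to 2.97 and a log2 ratio of 1.55. S100a6 (ENSMUSG00000001025, chr3:90612882-90624181, plus strand), or calcyclin, a gene named for its link to proliferating cells, had 15353 and 4064 mean reads, a ratio of 2.79-fold with an interval of 2.72 to 2.86. Both were more than 2-fold higher under each of the 6 scalings, with lowest log2 ratios of 1.10 and 1.03. Per kilobase, S100a10 ranked 60 among listed genes in the marrow and 17 in the pleural cavity, and S100a6 ranked 158 and 50.

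S100a4 and S100a13 were higher as well, at lower levels. S100a4 (ENSMUSG00000001020, chr3:90603771-90606045, plus strand), which encodes a protein that binds nonmuscle myosin and is studied in cell migration, had 1548.5 mean reads in the pleural cavity and 315 in the marrow. It was 3.63-fold higher, with an interval of 3.33 to 3.96, and its log2 ratio ran from 1.41 to 2.55 over the scalings. S100a13 (ENSMUSG00000042312, chr3:90514435-90524581, plus strand), whose protein takes part in the release of a fibroblast growth factor that lacks a signal peptide, had 3932 and 1326 mean reads, a 2.19-fold difference with an interval of 2.09 to 2.29. It passed 2-fold under 4 of the 6 scalings. S100a5 (ENSMUSG00000001023, chr3:90608523-90611780, plus strand), best known from olfactory neurons, had 30 mean reads in the pleural cavity and 0 in the marrow, at least 7.38-fold higher against a floor of 3 mean reads in the marrow. The 5 genes together took 0.329% of listed reads in the pleural cavity and 0.116% in the marrow, 2.83-fold higher.

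These S100 genes kept a similar order and near proportions among themselves. There were 2.06 reads of S100a10 for each read of S100a6 in the pleural cavity (interval 2.03 to 2.09) and 1.97 in the marrow (interval 1.92 to 2.02). For each S100a4 read there were 9.91 of S100a6 in the pleural cavity and 12.9 in the marrow, with intervals of 9.55 to 10.3 and 11.9 to 14.01. The first pair differed little, although its intervals do not overlap, and S100a4 was a larger part of S100a6 in the pleural cavity. For each S100a13 read there were 8.05 and 6.03 of S100a10.

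Calprotectin thus changed places with the other listed S100 genes. Per kilobase of the longest transcript, the order in the marrow was S100a8, S100a9, S100a10, S100a6, S100a13, S100a4 and S100a5, with 39103, 28575, 992, 441, 158 and 53.8 reads per 1000000 listed reads and kilobase for the first 6. In the pleural cavity it was S100a10, S100a6, S100a13, S100a4, S100a8, S100a9 and S100a5, with levels of 2896, 1230, 345, 195, 57.3, 43.2 and 4.36. With the union of exons as the length, S100a8 and S100a9 exchanged places in both tissues. As a share of reads on the 7 listed S100 genes, S100a10 made up 59.3% in the pleural cavity and 1.92% in the marrow. S100a8 made up 0.854% and 54.9%. Reads of the unlisted S100 genes are not given, so no share of the whole family is known. Summed over the 7 genes, S100 reads were 0.334% of listed reads in the pleural cavity and 3.55% in the marrow, a log2 ratio of -3.41, and this sum turned to 1.499 without S100a8 and S100a9, an alternative chosen after seeing the data.

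**Figure D3:**
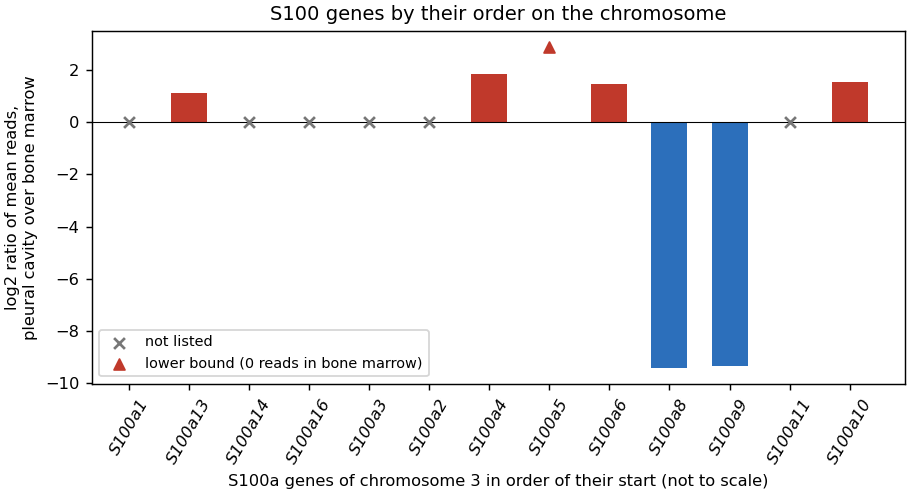
Log2 ratio of mean reads, pleural cavity over bone marrow, of the S100a genes of chromosome 3 in order of their start (not to scale). Symbols that do not end in a number, such as S100a7a, were left out. Crosses mark genes that were not listed, and a triangle marks the lower bound of S100a5. The adjoining S100a8 and S100a9 are the blue bars at -9.41 and -9.37, between the higher S100a6 (1.48) on one side and S100a10 (1.55) on the other.

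On the chromosome the lower pair stood together. S100a13, S100a4, S100a5 and S100a6, all higher, start before S100a8, and the start of S100a8 lies 56096 bases past that of S100a6. S100a9 starts 23654 bases further in the annotation and is on the opposite strand to S100a8. Next come S100a11, which was not listed and begins 2827856 bases past the start of S100a9, and then S100a10, which was higher. S100a1, S100a14, S100a16, S100a3 and S100a2, also of this stretch, were not listed. The order holds symbols that end in a number, so S100a7a, also unlisted, was not placed in it.

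S100a10 and its partner Anxa2 differed in direction. Anxa2 (ENSMUSG00000032231, chr9:69453620-69491795, plus strand) had 4337 mean reads in the pleural cavity and 8438.5 in the marrow, 2.64-fold lower in the pleural cavity with an interval of 2.57 to 2.71 and a log2 ratio of -1.40. There were 7.29 reads of S100a10 for each read of Anxa2 in the pleural cavity (interval 7.13 to 7.46) and 0.948 in the marrow (interval 0.927 to 0.968), a 7.70-fold difference that needs no scaling. Per kilobase the proportion was 24.3 in the pleural cavity and 3.15 in the marrow. Anxa2 itself was lower under each of the 6 scalings, past 2-fold in 4 of them, with log2 ratios from -1.84 to -0.71.

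Of the list of annexin and S100A10 partners and the plasminogen system, 3 of 12 genes were listed. Ahnak, a very large scaffold protein that binds the S100A10 and annexin A2 complex, had 65168 mean reads in the pleural cavity and 713 in the marrow, a log2 ratio of 6.07. Its reads were far more changed than those of S100a10, with 0.485 reads of S100a10 for each read of Ahnak in the pleural cavity and 11.2 in the marrow. Plaur, the urokinase receptor, was higher at 1.35, and Fpr2, a formyl peptide receptor that annexin A1 engages, was lower at -2.73 with 42.5 and 208.5 mean reads. Dysf, Eno1, Fpr1, Fpr3, Pla2g4a, Plat, Plau, Plgrkt and Serpinb2 were not listed.

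**Figure D4:**
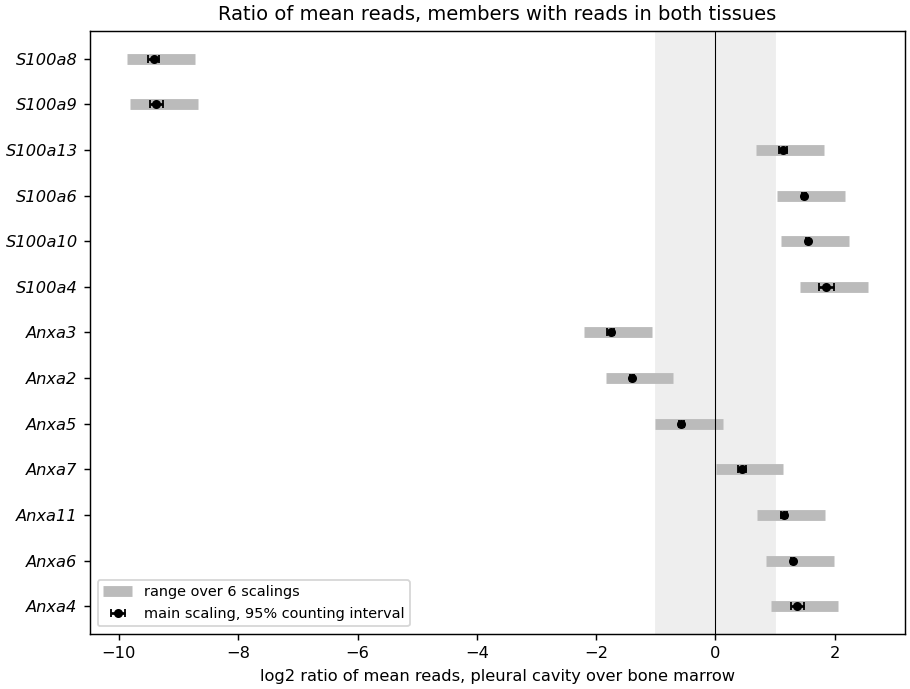
Log2 ratio of mean reads, pleural cavity over bone marrow, of the 13 members with reads in both tissues, with points for the scaling to the listed total, whiskers for the 95% counting interval and grey bars for the range over 6 scalings. The shaded band is within 2-fold. Anxa5 is the one member whose bar crosses 0, from -1.02 to 0.12.

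Among the annexins, Anxa6, Anxa11 and Anxa4 were more than 2-fold higher in pleural cavity eosinophils. Anxa6 (ENSMUSG00000018340, chr11:54979108-55033445, minus strand), whose protein carries a duplicated annexin core and is known from endosomes and the plasma membrane, had 22541.5 mean reads in the pleural cavity and 6794.5 in the marrow, 2.45-fold higher with an interval of 2.40 to 2.49. Anxa4 (ENSMUSG00000029994, chr6:86736840-86793584, minus strand), an annexin of secretory epithelia and membrane repair, had 1594 and 455.5, 2.58-fold higher with an interval of 2.40 to 2.78. Both passed 2-fold under 5 of the 6 scalings. Anxa11 (ENSMUSG00000021866, chr14:25842156-25886804, plus strand), known for tethering RNA granules to lysosomes, had 6655.7 and 2224.5, 2.21-fold higher with an interval of 2.13 to 2.28, and passed 2-fold under 4. Its mean reads were fractional, as happens where RSEM divides reads between similar transcripts, so they are uncertain, and an antisense gene overlaps it.

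Anxa3 and Anxa10 stood on the lower side with Anxa2. Anxa3 (ENSMUSG00000029484, chr5:96793339-96845966, plus strand), an annexin long known from neutrophil granules, had 1831 mean reads in the pleural cavity and 4572 in the marrow, 3.39-fold lower with an interval of 3.26 to 3.52 and past 2-fold under each scaling. Its difference was far smaller than those of the granule genes Camp, Ngp and Ltf above, while Mmp9 of the same marker list was at 0.87. Anxa10 (ENSMUSG00000031635, chr8:62057042-62123150, minus strand), mainly known from gastric epithelium, had 0 mean reads in the pleural cavity and 12.5 in the marrow, at least 5.65-fold lower against a floor of 3 mean reads in the pleural cavity.

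Anxa5 and Anxa7 differed least. Anxa5 (ENSMUSG00000027712, chr3:36448923-36475894, minus strand), the phosphatidylserine binder used to stain dying cells, had 5673.5 mean reads in the pleural cavity and 6220.5 in the marrow, a log2 ratio of -0.57 with an interval of -0.61 to -0.54. Its sign turned with the scaling, to 0.12 with the median of ratios over all listed genes. Anxa7 (ENSMUSG00000021814, chr14:20455260-20480133, minus strand), or synexin, named for membrane fusion, had 2343 and 1266, a ratio of 0.45 with an interval of 0.38 to 0.52. They lay on either side of the stretch from -0.47 to 0.18 in which no gene was listed.

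The 8 listed annexins differed little as a sum under the scaling to the listed total, and more in their order. Their summed reads were 0.282% of listed reads in the pleural cavity and 0.255% in the marrow, a log2 ratio of 0.15. This sum ran from -0.30 with the median of abundant genes as the scale to 0.84 with the median of ratios over all listed genes, and was -0.49 without Anxa6. Per kilobase the marrow order was Anxa2, Anxa5, Anxa3, Anxa6, Anxa11, Anxa7, Anxa4 and Anxa10, and the first 4 lay between 315 and 232 reads per 1000000 listed reads and kilobase. With the union of exons as the length, 4 of the 8 marrow places changed, so no order is read among them. In the pleural cavity the order was Anxa6, Anxa5, Anxa11, Anxa2, Anxa3, Anxa7, Anxa4 and Anxa10 with either length, and Anxa6 at 568 was well above Anxa5 at 206. Of reads on the 8 listed annexins, Anxa6 made up 50.1% in the pleural cavity and 22.7% in the marrow, and Anxa2 9.64% and 28.1%. Reads of the unlisted annexins are not given, so no share of the whole family is known. For each read of Anxa2 there were 5.20 of Anxa6 in the pleural cavity (interval 5.08 to 5.32) and 0.805 in the marrow (interval 0.787 to 0.824).

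**Figure D5:**
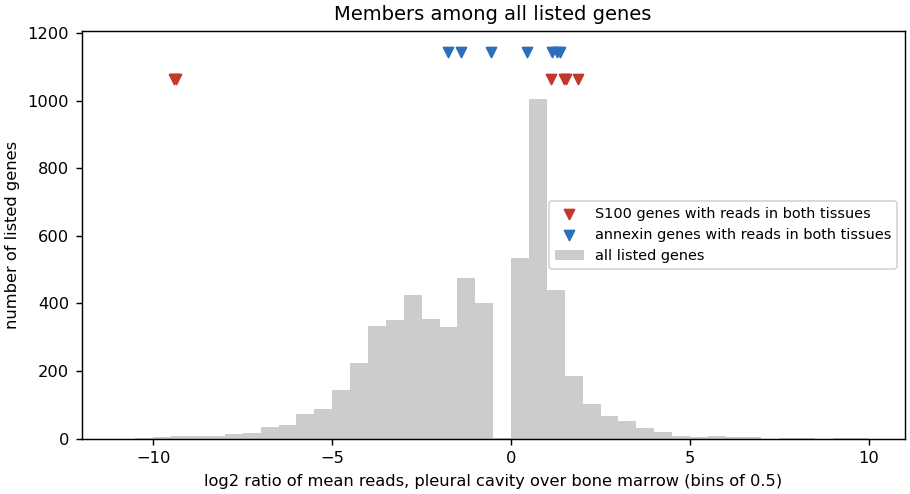
Number of listed genes (grey bars, bins of 0.5) by log2 ratio of mean reads, pleural cavity over bone marrow, with triangles for the S100 (red) and annexin (blue) members with reads in both tissues. The annexins and most S100 genes lie between -1.76 and 1.86, S100a8 and S100a9 lie at the far left, and the bin from -0.5 to 0 is nearly empty.

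Set among all listed genes, many genes had higher ratios than the members on the higher side, and few had lower ratios than S100a8 and S100a9. Between 5.80% (S100a4) and 13.5% (S100a13) of listed genes had a higher ratio than each of the 7 members that were more than 2-fold higher and had reads in both tissues, with S100a10 at 8.08%, S100a6 at 8.66%, Anxa4 at 9.78%, Anxa6 at 10.8% and Anxa11 at 13.1%. For Anxa7, higher but within 2-fold, the share was 35.5%. For S100a8 and S100a9 the count of genes with a lower ratio was 8 and 9, whereas it was 2546 for Anxa2 and 2268 for Anxa3. Gene models overlap S100a4, Anxa2, Anxa3, Anxa4, Anxa5 and Anxa11, on the opposite strand for Anxa2, Anxa4 and Anxa11. None of the overlapping genes was listed, and the sources used here do not state whether reads were counted by strand.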

How the data were processed

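Eosinophils of 2 tissues were sequenced with 2 libraries each and grouped by the tissue in their labels. The authors trimmed reads with SOAPnuke and used HISAT2 2.1.0, Bowtie2 2.2.5, RSEM 1.2.8 and DESeq2 on GRCm38, and the submitters' processing notes also name StringTie 1.0.4. The deposited values are expected counts (estimated counts), given as the authors' mean of the 2 libraries per tissue and not scaled for depth. The log2 fold changes, p-values and q-values of the authors' own comparison were not used.

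Mean reads were scaled to the listed total. Ratios carry 95% exact Clopper-Pearson intervals on the summed reads, rounded to whole reads. These cover counting error alone, and library depths are unknown. Means under 3 were raised to 3 for counts past 2-fold, for median ratios of gene sets and for counts of genes with a higher or lower ratio. The planned edgeR test needs counts per library and was not run. The ratio was run on simulated reads with known differences and counting error alone, which cannot show how spread between libraries affects it. Coordinates and lengths come from GENCODE vM21 (GRCm38), matched for 5656 of 5807 genes by Ensembl identifier, with promoters from RefSeq. Every listed member was named, and listed genes of the partner and marker lists could be, apart from a few that are not reported here. Members and lists were chosen with earlier results of these data known. The table has 0 per-sample columns outside these means. Tools were R 4.3.3 with edgeR 4.0.16 (TMM) and Python 3.11.15 with scipy 1.17.1, numpy 2.4.6, pandas 2.3.3 and matplotlib 3.10.9. Alternatives covered scaling, fold threshold, low and fractional reads, length and leaving out the most abundant member.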

Additional observations from a re-analysis of the deposited data

How the results depend on the processing

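With the median ratio of abundant genes (1000 or more mean reads in each tissue) as the scale, 4 members were more than 2-fold higher, and with a fold threshold of 4, 1 was higher and 3 were lower. Under the other scalings and the filters on low or fractional reads, 6 to 9 members were higher and 4 or 5 lower. The log2 ratio of the summed S100 reads was -2.97 with no scaling, -3.58 without the 50 genes with most reads, -3.85 with the abundant genes, -2.72 with the median of ratios, -3.27 with edgeR TMM, -2.27 without S100a8 and 1.499 without S100a8 and S100a9. That of the summed annexin reads was 0.59, -0.025, -0.30, 0.84 and 0.29 under the same scalings in the same order, and -0.49 without Anxa6. Of the 15 members, Anxa5 was the one to change sign under a scaling.

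Leaving out a library could not be run, since the table holds means. No paired analysis was possible because the mean columns carry no replicate numbers. The protein sequence features planned were not run. Depth per library is unknown, so members with few reads, S100a5 and Anxa10, rest on 30 and 12.5 mean reads, and whether the 2 libraries of a tissue agreed could not be examined for any member.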

Other observations

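Other calcium-binding and calcium-handling genes divided as well. Of 39 genes on this list 20 were listed, with 5 more than 2-fold higher in pleural cavity eosinophils, 6 lower and 9 within 2-fold, and a median log2 ratio of 0.49. On the higher side were Atp2b1, a plasma membrane calcium pump, with 17276 mean reads in the pleural cavity and 1225.5 in the marrow and a log2 ratio of 3.38, although its reads were fractional and so uncertain. Capn2, the large subunit of a calcium-activated protease, was at 2.46, the calmodulin gene Calm2 was at 1.37, and Tesc, an EF-hand protein, was at 1.35. The store-operated entry genes Stim1, Stim2 and Orai3 were at 0.90, 0.52 and 0.51, within 2-fold.

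On the lower side, Calr, the calcium-storing chaperone of the endoplasmic reticulum, had 3442 mean reads in the pleural cavity and 13438 in the marrow, a log2 ratio of -2.40. Its membrane-bound relative Canx was at -0.65, and turned to 0.04 with the median of ratios over all listed genes as the scale. The copines Cpne2 and Cpne3 were at -2.74 and -1.13, the phospholipid scramblase Plscr1 at -2.57, the calcium pump Atp2b4 at -2.31 with 42.5 and 155.5 mean reads, and the actin bundler Lcp1 at -1.24.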
